A study of Homo sapiens with 8 samples.

Results

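The genes described here encode the cytosolic heat shock proteins, their helper proteins and the transcription factor that drives them, 10 genes chosen by symbol: HSF1, HSPA1A, HSPA1B, HSPA8, HSPH1, DNAJB1, BAG3, HSP90AA1, HSP90AB1 and HSPB1. All 10 were found among the 23228 genes listed, and all 10 passed the filter on low counts, which kept 13498 genes for testing. RNA sequencing measured them in ES2, a human ovarian cancer cell line. Control cells and cells with a knockout of KDM1A, a histone H3 lysine 4 demethylase, were compared after 48 h with vehicle or with LY500307 at 5 µM, a compound that activates oestrogen receptor beta. The 4 groups held 2 libraries each. No label says whether the knockout cells were 1 clone or a pool, so loss of KDM1A and any other difference between the 2 populations cannot be told apart. Nor do the labels tie the duplicates to separate cultures, and the p-values therefore rest on a spread that may be technical.

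Heat shock proteins are chaperones that bind unfolded or newly made proteins and keep them from aggregating. HSF1, the master transcription factor of the heat shock response, is held inactive by chaperones in unstressed cells and, when unfolded protein titrates these away, forms trimers that bind arrays of inverted GAA repeats, the heat shock elements, in chaperone gene promoters. Its activation is mainly a matter of the protein, and its transcript need not change. HSPA1A and HSPA1B encode the inducible HSP70, and HSPA8 encodes the constitutive HSC70. DNAJB1 is an HSP40 that delivers substrates to HSP70 and stimulates its ATPase, while HSPH1 (HSP110) and BAG3 release nucleotide from HSP70 so that the cycle can go on. HSP90AA1 and HSP90AB1 encode the stress-inducible and the constitutive HSP90, which mature kinases and steroid receptors, among them oestrogen receptors. HSPB1 (HSP27) is a small chaperone that holds unfolded proteins without using ATP. Cancer cells often rely on these chaperones.

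Gene counts summed to 24348937 to 30131097 per library, and the 10 genes together took 0.982% to 1.08% of them. KDM1A itself stood at 219 to 241 CPM (counts divided by each library size after TMM scaling) in the 4 control libraries and at 71.5 to 77.8 CPM in the 4 labelled knockout. Of 9 ovarian and epithelial markers, keratin 7 stood at 252 to 370 CPM and vimentin at 7381 to 12400 CPM. MUC16, which encodes the ovarian cancer antigen CA125, had at most 1 count in a library. PAX8 stood at 1.39 to 7.23 CPM and EPCAM at 0.419 to 2.13 CPM. The keratins diverged between the populations. With vehicle, control and knockout means were 257 and 364 CPM for keratin 7, but 27.2 and 7.44 CPM for keratin 8 and 327 and 161 CPM for keratin 18. Of 8 haematopoietic markers, 7 stayed under 1 CPM in all libraries, CD3E and HBB had no count, and the list summed to 96.6 to 112 CPM in control and 61.7 to 73.8 CPM in knockout libraries, nearly all of it CD68. CDH5 made up most of the level of 5 endothelial markers, which summed to 103 to 105 CPM in control vehicle, 83.1 to 88.6 CPM in control LY500307, 32.9 CPM in knockout vehicle and 26.7 to 31.8 CPM in knockout LY500307 libraries. PECAM1 had at most 5 counts in a library, and the part of these markers in the results below was not tested.

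How much of each transcript single reads of 50 bases can tell from other loci was computed first, because reads with several alignments stand in a separate entry of the deposited files and not in the gene counts. HSPA1A (hg19 chromosome 6, 31783320 to 31785723) and HSPA1B (chromosome 6, 31795515 to 31798031) are intronless neighbours on 6p. Of the 50-base stretches of the HSPA1A transcript, 75.1% also occur elsewhere in GRCh37, and for HSPA1B 71.6% do, all of them at the partner gene and some also at HSPA1L. Their counts were 253 to 752 per library, and error-free reads can be assigned to them from only 585 and 702 start positions, and the 2 genes are read together below. HSP90AA1 (chromosome 14, 102547079 to 102606036) shared 24.6% of its stretches and HSP90AB1 (chromosome 6, 44213903 to 44221625) 22.5%, most of them with processed pseudogenes. HSPA8 (chromosome 11, 122928197 to 122933938) shared 23.2%, with processed pseudogenes and noncoding RNA loci. For HSPB1 (chromosome 7, 75931990 to 75933612) the share was 16.6%, for DNAJB1 (chromosome 19, 14625581 to 14671203) 4.29% and for HSPH1 (chromosome 13, 31709110 to 31736525) 0.212%. No stretch of HSF1 (chromosome 8, 145515273 to 145538383) or BAG3 (chromosome 10, 121410892 to 121437331) occurred elsewhere. The gene spans of HSF1, HSP90AA1 and DNAJB1, introns included, overlap those of the coding genes DGAT1, WDR20 and TECR on the other strand. The library kit keeps strand, but no source used here says whether the counting did. Overlap of exons was not examined, and its part in the counts of these genes was not tested.

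**Figure D1:**
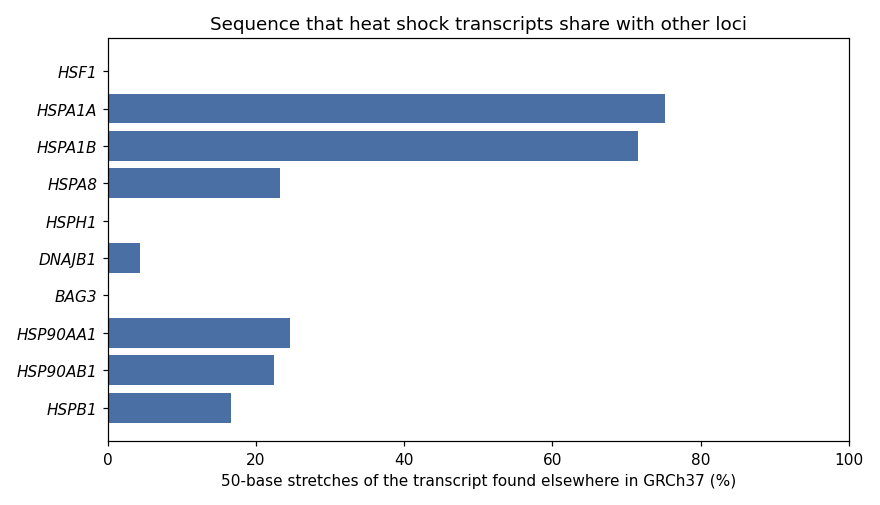
Bars give, for each gene's canonical transcript, the percentage of 50-base stretches with an exact copy elsewhere in GRCh37. HSPA1A and HSPA1B stand at 75.1% and 71.6%, and each other transcript at 24.6% or less.

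The promoters of 5 of the 7 members whose windows hold heat shock element letters are shown. HSP90AA1 and HSPB1 also hold such letters but are not printed. The choice does not tie the letters to the changes described below. HSPH1 and BAG3 rose with LY500307 in both populations without a match, and HSP90AB1 fell with one. The sequences are the 250 bases before a RefSeq gene start (GRCh38.p14, each on its gene's strand, 5′ to 3′). Capitals mark matches to GAANNTTC or TTCNNGAA, where N is any base, that is, 2 inverted GAA units. Each of these motifs reads the same on both strands. For DNAJB1 and HSP90AB1, which have 3 listed starts each, the window with the most matches is printed. The other windows of both genes held no match. The printed HSP90AB1 window precedes the most downstream of its listed starts.
HSPA1A (chr6:31815293-31815542, plus strand): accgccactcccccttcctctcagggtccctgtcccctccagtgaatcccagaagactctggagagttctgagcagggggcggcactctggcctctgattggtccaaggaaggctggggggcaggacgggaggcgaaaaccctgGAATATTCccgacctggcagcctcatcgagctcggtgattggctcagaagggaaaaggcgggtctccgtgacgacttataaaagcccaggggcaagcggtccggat
HSPA1B (chr6:31827488-31827737, plus strand): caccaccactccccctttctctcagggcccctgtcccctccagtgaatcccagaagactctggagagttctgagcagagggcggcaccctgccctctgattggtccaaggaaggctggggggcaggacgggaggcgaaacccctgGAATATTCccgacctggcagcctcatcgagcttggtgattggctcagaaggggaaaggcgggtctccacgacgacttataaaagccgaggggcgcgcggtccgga
HSPA8 (chr11:123062137-123062386, minus strand): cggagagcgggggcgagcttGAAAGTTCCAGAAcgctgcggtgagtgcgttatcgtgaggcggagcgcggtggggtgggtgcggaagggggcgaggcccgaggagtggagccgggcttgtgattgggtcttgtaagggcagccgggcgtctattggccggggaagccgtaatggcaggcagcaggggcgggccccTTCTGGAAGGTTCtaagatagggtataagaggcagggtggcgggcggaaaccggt
DNAJB1 (chr19:14518398-14518647, minus strand): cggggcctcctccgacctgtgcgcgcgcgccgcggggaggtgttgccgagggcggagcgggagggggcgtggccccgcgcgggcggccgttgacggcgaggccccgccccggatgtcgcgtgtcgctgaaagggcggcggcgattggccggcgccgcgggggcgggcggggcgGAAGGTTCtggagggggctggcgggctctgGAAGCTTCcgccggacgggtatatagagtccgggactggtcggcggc
HSP90AB1 (chr6:44247693-44247942, plus strand): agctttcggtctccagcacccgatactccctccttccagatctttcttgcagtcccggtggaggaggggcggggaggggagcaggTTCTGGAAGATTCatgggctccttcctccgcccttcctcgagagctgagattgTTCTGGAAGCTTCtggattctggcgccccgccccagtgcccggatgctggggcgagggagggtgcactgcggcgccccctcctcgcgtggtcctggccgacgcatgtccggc
RefSeq windows were found for 9 of the 10 members (not HSF1), 14 windows in all. A match with 2 units occurred in a window of 7 of the 9: HSPA1A, HSPA1B, HSPA8, HSP90AA1, HSP90AB1, HSPB1 and DNAJB1. By window that was 7 of 14, beside 11.6% of all 35116 windows of this length, and by gene 14.0% of 27305 genes held one in any of their windows. The longer forms GAANNTTCNNGAA and TTCNNGAANNTTC, which contain the shorter ones and hold 3 units, occurred in windows of 3 members, with GAAAGTTCCAGAA and TTCTGGAAGGTTC at HSPA8, TTCCGGAAGGTTC at HSP90AA1 and TTCTGGAAGATTC and TTCTGGAAGCTTC at HSP90AB1. By window that was 3 of 14, beside 0.441% of all windows, and by gene 0.557% of all genes held one. The windows of HSPA1A and HSPA1B were identical at 93.6% of aligned positions and held the same match, GAATATTC. Those of HSPH1 and BAG3 held none of these letters. A match is a description of the sequence and no evidence of binding.

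Levels of different genes were compared as CPM per 1000 transcript positions that are unique at 50 bases. On this scale HSP90AB1 (1698 to 2033 over the 8 libraries), HSPA8 (1410 to 1701) and HSP90AA1 (1151 to 1293) were far above the rest, and HSPB1 followed (239 to 301). DNAJB1 (62.5 to 84.6), HSPH1 (52.4 to 76.8), HSF1 (57.5 to 64.7) and BAG3 (48.8 to 60.4) followed, each overlapping the next in this order. The inducible pair came last, HSPA1A at 19.6 to 44.9 and HSPA1B at 15.4 to 37.1. The ranges of HSP90AB1 and HSPA8 touched over all libraries, but within vehicle-treated control cells they were apart, at 2031 and 2033 against 1410 and 1462. Per position, the inducible HSP70 genes thus stood at the low end in each group. The constitutive HSP90AB1 and HSPA8 stood at the high end, together with the stress-inducible HSP90AA1.

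LY500307 raised the inducible HSP70 pair in both cell populations, by 1.62-fold (HSPA1A and HSPA1B counts summed) in control and 1.63-fold in knockout cells. HSPA8, HSPH1, DNAJB1 and BAG3 also rose in both populations, by 1.07-fold to 1.23-fold. HSP90AB1 fell by a small amount in both, HSF1 did not pass the test in either, and HSPB1 rose in control cells. In bulk RNA, fewer cells that express a gene and less RNA per cell cannot be told apart. In all, 7 of 10 members rose and 1 fell in control cells, where 12.3% of all genes tested rose and 14.0% fell. In knockout cells 6 rose and 1 fell, against 9.16% and 11.3% of all genes, so 7 of 10 differed where 20.4% of all genes did (26.3% in control cells). HSPA1A and HSPA1B count as 2 of these members although their sequences are nearly the same. The members were also chosen with earlier results of these data known, so these shares are a description and no test of enrichment. Both LY500307 libraries lay above both vehicle libraries for 7 members in each population, beside 32.1% and 30.6% of all genes, and below them for 2 members in each, beside 31.0% and 27.8%. The 6 that rose in knockout cells also rose in control cells, and 4.26% of all genes tested rose in both. The members' median log2 fold change was 0.13 in control and 0.18 in knockout cells, beside 0.0052 and 0.010 over all genes.

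**Figure D2:**
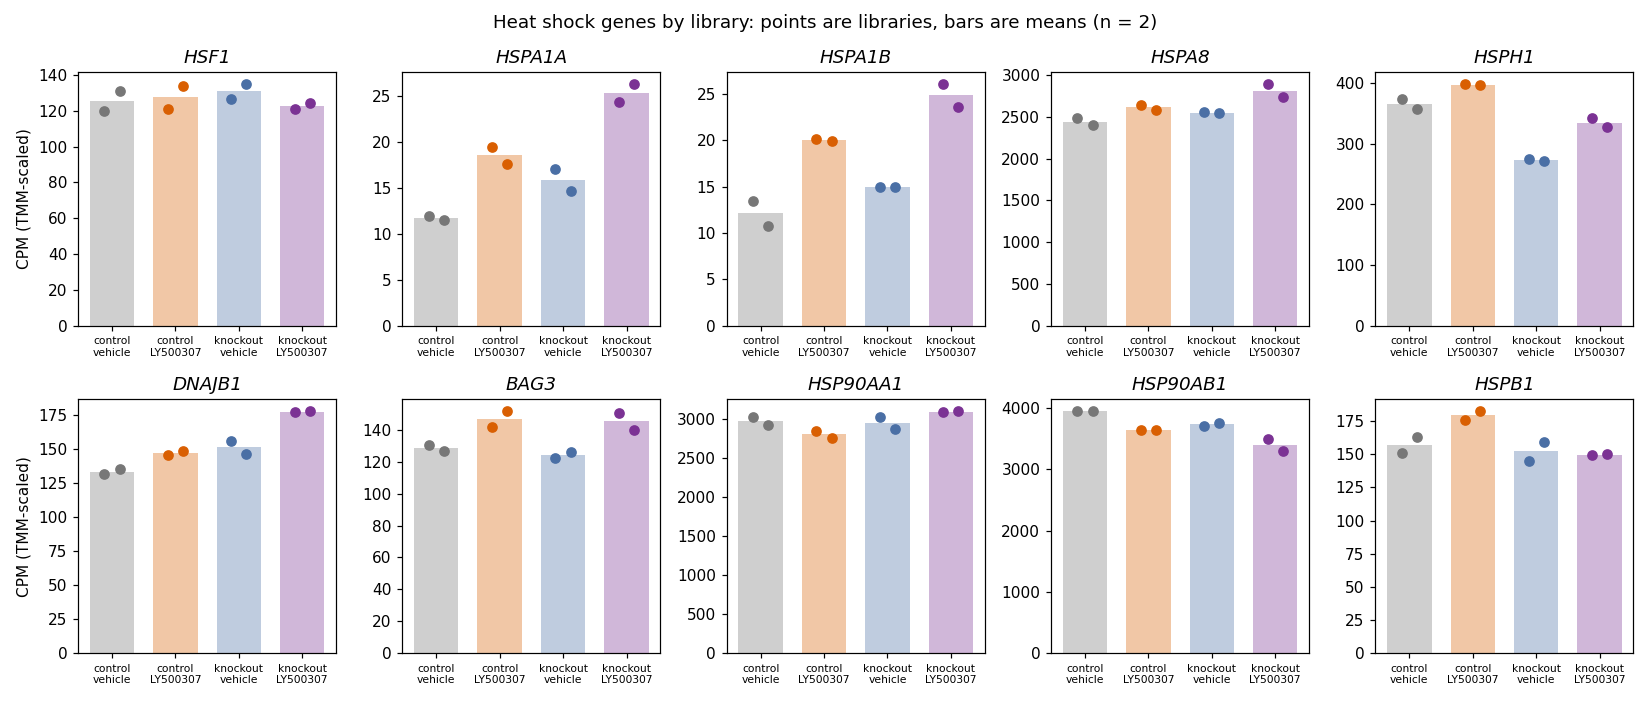
Each panel shows 1 gene, with TMM-scaled CPM on an axis from 0; points are the 8 libraries and bars the means of 2. HSPA1A stands at 11.5 to 11.97 CPM in control vehicle libraries and at 24.3 to 26.3 CPM in knockout LY500307 libraries, while HSF1 stays between 119.8 and 135 CPM throughout.

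HSF1 stood at 119.8 and 131 CPM in control vehicle, 121 and 133.5 in control LY500307, 127 and 135 in knockout vehicle, and 121 and 124 in knockout LY500307 libraries. Its control groups overlapped, and both knockout LY500307 libraries lay just below both knockout vehicle libraries. The log2 fold change with LY500307 was 0.023 in control (95% interval -0.09 to 0.14) and -0.09 in knockout cells (-0.21 to 0.022), with adjusted p = 0.801 and 0.260 (edgeR quasi-likelihood test, Benjamini-Hochberg adjustment).

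HSPA1A stood at 11.97 and 11.5 CPM in control vehicle and at 19.4 and 17.6 CPM in control LY500307 libraries, and at 17.1 and 14.7 CPM in knockout vehicle and 24.3 and 26.3 CPM in knockout LY500307 libraries. HSPA1B had nearly the same values, 13.4 and 10.8, 20.2 and 19.9, 14.98 and 14.98, and 26.1 and 23.6 CPM in the same order. In both populations each LY500307 library was above each vehicle library for both genes. With LY500307 HSPA1A rose by 1.58-fold in control cells (log2 fold change 0.66, SE 0.10, edgeR adjusted p = 1.47e-05) and by 1.60-fold in knockout cells (0.68, SE 0.095, adjusted p = 2.94e-06). HSPA1B rose by 1.65-fold in each (log2 fold changes 0.73 and 0.73, SE 0.10 and 0.097, adjusted p = 3.02e-06 and 1.23e-06). These rises rank above 94.2% to 96.45% of the genes tested in the same comparisons. All 4 calls stayed when any 1 of the 8 libraries was left out, with HSPA1A between 0.57 and 0.79 and HSPA1B between 0.58 and 0.89 on the log2 scale. Summed, the pair stood at 25.4 and 22.3 CPM in control vehicle, 39.6 and 37.5 in control LY500307, 32.1 and 29.6 in knockout vehicle, and 50.4 and 49.8 CPM in knockout LY500307 libraries. HSPA1A made up 46.9% to 53.3% of the summed counts in every library, with exact binomial intervals that reach from 43.1% to 56.8% and cover counting error only.

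The share of alignments that were not unique moved with the treatment and bears on these 2 genes. Per 100 uniquely aligned reads there were 49.6 and 50.5 such alignments in control vehicle, 46.6 and 46.6 in control LY500307, 52.8 and 52.7 in knockout vehicle, and 50.5 and 48.9 in knockout LY500307 libraries. The part of this difference in the rise of HSPA1A and HSPA1B was not tested.

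HSPA8, the constitutive HSP70, stood at 2487 and 2398 CPM in control vehicle and 2642 and 2585 CPM in control LY500307 libraries, a 1.07-fold rise (log2 fold change 0.098, SE 0.036, adjusted p = 0.0443). In knockout cells it stood at 2560 and 2543 CPM with vehicle and 2893 and 2735 CPM with LY500307, a 1.10-fold rise (0.14, SE 0.036, adjusted p = 0.00482). The groups did not overlap in either population, yet the rise was small beside that of the inducible pair. HSPH1, the HSP110 that acts as a nucleotide exchange factor, stood at 373 and 356 CPM in control vehicle and 398 and 396 CPM in control LY500307 libraries. It went from 274 and 272 CPM to 342 and 327 CPM in knockout cells. The rise of HSPH1 was 1.09-fold in control (log2 fold change 0.12, SE 0.043, adjusted p = 0.0328) and 1.23-fold in knockout cells (0.29, SE 0.044, adjusted p = 6.94e-06).

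DNAJB1, the HSP40 partner of HSP70, stood at 131 and 135 CPM in control vehicle, 145 and 148 in control LY500307, 156 and 146 in knockout vehicle, and 177 and 177.5 CPM in knockout LY500307 libraries. Each LY500307 library lay above each vehicle library of its population, and the rises were 1.10-fold (log2 fold change 0.14, SE 0.050, adjusted p = 0.0377) and 1.18-fold (0.23, SE 0.049, adjusted p = 0.000745). BAG3, which links HSP70 to selective autophagy, stood at 130.3 and 127 CPM in control vehicle, 142 and 152 in control LY500307, 122.5 and 126 in knockout vehicle, and 151 and 139.9 CPM in knockout LY500307 libraries. BAG3 rose by 1.14-fold in control (log2 fold change 0.19, SE 0.053, adjusted p = 0.00664) and by 1.17-fold in knockout cells (0.22, SE 0.052, adjusted p = 0.00201).

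The smaller rises in control cells lay close to the threshold, and their calls were lost with fewer libraries while the values stayed positive. With any 1 of the 8 libraries left out, the log2 fold change was 0.071 to 0.12 for HSPA8, 0.12 to 0.16 for DNAJB1, 0.090 to 0.16 for HSPH1 and 0.14 to 0.24 for BAG3. Leaving out control vehicle replicates 1 and 2 and control LY500307 replicates 1 and 2 in turn gave edgeR adjusted p of 0.0602, 0.320, 0.251 and 0.108 for HSPA8 and of 0.211, 0.0811, 0.0882 and 0.204 for DNAJB1, and DESeq2 gave 0.0563 for HSPA8 with all libraries. The HSPH1 call was lost without control vehicle replicate 2 (0.278) and control LY500307 replicates 1 (0.145) and 2 (0.123), and that of BAG3 without control vehicle replicate 2 (0.0717) and control LY500307 replicate 2 (0.141). In knockout cells HSPH1 and DNAJB1 passed in all 8 such fits, while HSPA8 (log2 fold change 0.09, adjusted p = 0.142) and BAG3 (0.16, adjusted p = 0.0810) did not pass without knockout LY500307 replicate 1.

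Of the HSP90 genes, HSP90AB1 passed the test with LY500307 and HSP90AA1 did not. HSP90AB1 stood at 3951 and 3947 CPM in control vehicle, 3641 and 3652 in control LY500307, 3711 and 3764 in knockout vehicle, and 3494 and 3300.0 CPM in knockout LY500307 libraries. It was lower with LY500307 in both libraries of each population, with log2 fold changes of -0.11 (SE 0.035, adjusted p = 0.0139) and -0.14 (SE 0.035, adjusted p = 0.00408), where 6.65% of all genes fell in both populations. When libraries were scaled by their totals, these values were -0.042 (adjusted p = 0.373) and -0.079 (adjusted p = 0.0874) and neither passed. In control cells the value stayed between -0.12 and -0.11 with any 1 of the 8 libraries left out, but did not pass without any 1 of the 4 control libraries (adjusted p of 0.0756 and 0.0719 without vehicle replicates 1 and 2, and of 0.0905 and 0.0692 without LY500307 replicates 1 and 2), and the knockout call was lost without knockout LY500307 replicate 2 (-0.10, adjusted p = 0.0624). HSP90AA1 stood at 3031 and 2920 CPM in control vehicle, 2852 and 2759 in control LY500307, 3027 and 2869 in knockout vehicle, and 3089 and 3100.0 CPM in knockout LY500307 libraries. Its log2 fold changes were -0.085 in control cells (95% interval -0.16 to -0.011) and 0.070 in knockout cells (-0.0039 to 0.14), and neither passed (adjusted p = 0.0802 and 0.177). Its LY500307 libraries lay below both vehicle libraries in control cells and above both in knockout cells. It passed in control cells when the other population was left out of the fit (-0.086, adjusted p = 0.0346) and in knockout cells with library totals (0.13, adjusted p = 0.00829).

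HSPB1, the small heat shock protein, stood at 151 and 163 CPM in control vehicle and 176 and 182.5 CPM in control LY500307 libraries, a 1.14-fold rise (log2 fold change 0.19, SE 0.052, adjusted p = 0.00676). That call was lost without control vehicle replicate 1 (0.13, adjusted p = 0.149) or control LY500307 replicate 2 (0.16, adjusted p = 0.0915). In knockout cells HSPB1 stood at 145 and 159 CPM with vehicle and at 149 and 150.1 CPM with LY500307, and the groups overlapped (log2 fold change -0.026, 95% interval -0.13 to 0.081, adjusted p = 0.773).

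**Figure D3:**
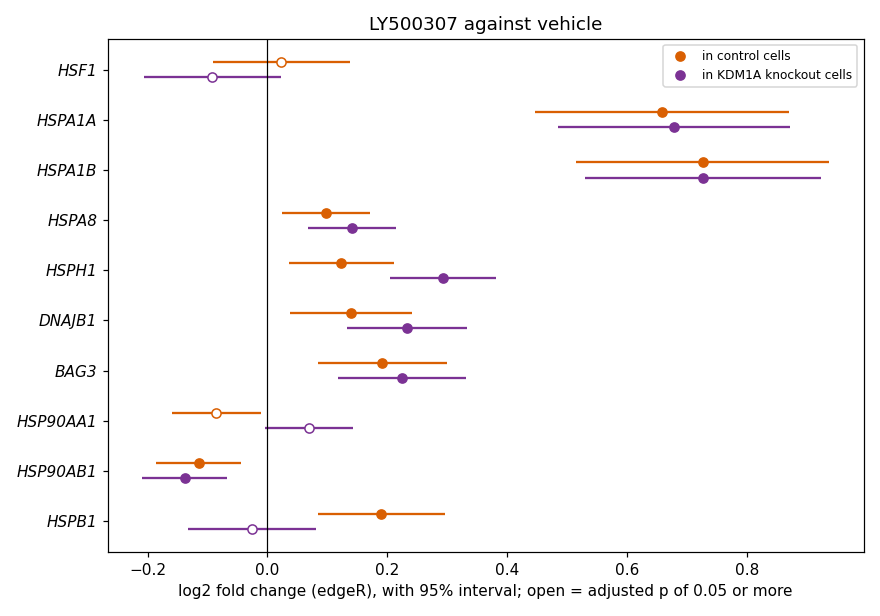
Log2 fold changes with LY500307 and their 95% intervals (x axis) for the 10 genes (y axis), in control and in knockout cells; open points had an adjusted p of 0.05 or more. HSPA1A and HSPA1B lie between 0.66 and 0.73 in both populations, and the other genes between -0.14 and 0.29.

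Whether the response to LY500307 differed between the populations was tested as an interaction. In the main fit none of the 10 genes passed by edgeR's quasi-likelihood test, where 1.62% of all genes did, and none passed by DESeq2. At an unadjusted p under 0.05 there were 3, beside 14.4% of all genes, namely HSP90AA1 (difference of log2 fold changes, knockout minus control, 0.15, 95% interval 0.051 to 0.26, adjusted p = 0.122), HSPH1 (0.17, 0.045 to 0.29, adjusted p = 0.164) and HSPB1 (-0.22, -0.37 to -0.066, adjusted p = 0.137). These 3 passed in an alternative fit with replicate number as a block, where 4.76% of all genes did. For the summed HSPA1A and HSPA1B counts the difference was 0.0084, with a 95% interval of -0.22 to 0.23. A difference anywhere within that interval remains compatible with these libraries.

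Without agonist, knockout cells had more HSPA1A, HSPA1B and DNAJB1 transcript than control cells and less HSPH1 and HSP90AB1. HSPA1A was 1.35-fold higher (log2 fold change 0.43, SE 0.11, adjusted p = 0.000658) and HSPA1B 1.24-fold higher (0.31, SE 0.11, adjusted p = 0.0132). DNAJB1 was 1.13-fold higher (0.18, SE 0.050, adjusted p = 0.00233). HSPH1 had the largest fall among the members, to 74.9% of control (-0.42, SE 0.044, adjusted p = 2.93e-10), and HSP90AB1 stood at 94.7% (-0.079, SE 0.035, adjusted p = 0.0463). These 5 of 10 stand beside 64.0% of all genes tested that differed, so the share of members was near the background. Libraries did not overlap between the populations for 4 members that were higher (39.5% of all genes) and 3 that were lower (41.8%). HSF1 (log2 fold change 0.062), HSPA8 (0.063), HSP90AA1 (-0.014), HSPB1 (-0.044) and BAG3 (-0.047) did not pass.

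Under LY500307 the same comparison gave 8 calls among the 10 members, near the background of 66.2%. Of these, 5 were higher and 3 lower, beside 32.6% and 33.6% of all genes. Among the 10 members, libraries stood apart upwards for the same 5 (40.1% of all genes) and downwards for the same 3 (41.2%). Calls and overlap rest on the same values, so the overlap adds no support to the calls. HSPA1A was 1.37-fold higher in knockout cells (log2 fold change 0.45, SE 0.093, adjusted p = 7.35e-05), HSPA1B 1.24-fold (0.31, SE 0.093, adjusted p = 0.00445) and DNAJB1 1.21-fold (0.27, SE 0.049, adjusted p = 1.07e-05). HSP90AA1 (1.10-fold, adjusted p = 0.000955) and HSPA8 (1.08-fold, adjusted p = 0.0107) were higher as well. Lower were HSPH1 at 84.2% of control (adjusted p = 6.05e-06), HSPB1 at 83.5% (adjusted p = 4.63e-05) and HSP90AB1 at 93.2% (adjusted p = 0.0103). HSPA1A, HSPA1B and DNAJB1 were higher and HSPH1 and HSP90AB1 lower with either treatment, and 26.5% and 28.5% of all genes were called higher and lower in both. HSF1 (-0.053) and BAG3 (-0.015) did not pass.

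Some of these calls were lost when 1 library was left out. Without control vehicle replicate 2 the HSPA1B difference with vehicle was 0.16 (edgeR adjusted p = 0.296), and without knockout vehicle replicate 2 it was 0.31 (adjusted p = 0.0512), while under LY500307 it was 0.22 without knockout LY500307 replicate 1 (adjusted p = 0.0775). The summed pair was higher in knockout cells by 1.29-fold with vehicle (95% interval of the log2 fold change 0.20 to 0.54) and by 1.30-fold with LY500307 (0.23 to 0.53). DNAJB1 did not pass with vehicle without knockout vehicle replicate 1 (0.13, adjusted p = 0.0714), and HSPA8 did not pass under LY500307 without control LY500307 replicate 2 (0.09, adjusted p = 0.0980) or knockout LY500307 replicate 1 (0.056, adjusted p = 0.239). The HSP90AB1 difference with vehicle stayed between -0.091 and -0.069 with any 1 library left out, but its call was lost without control vehicle replicates 1 (adjusted p = 0.136) or 2 (0.128), control LY500307 replicates 1 (0.0616) or 2 (0.0635) and knockout vehicle replicates 1 (0.169) or 2 (0.0674). It was also lost by DESeq2 (0.113), with DESeq2 size factors (0.0896), with the vehicle groups alone (0.0779) and with library totals (-0.033, 0.401). The HSP90AB1 call under LY500307 was lost without control LY500307 replicate 2 (0.0584), knockout LY500307 replicate 2 (0.133) and with library totals (-0.070, adjusted p = 0.0692).

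Whole chromosome arms differed in level between knockout and control cells, and several members lie on such arms. The median log2 fold change of knockout against control with vehicle was -0.35 over 217 genes tested on 13q, where HSPH1 lies, 0.32 over 346 on 19p (DNAJB1), 0.30 over 371 on 14q (HSP90AA1) and -0.34 over 262 on 8q (HSF1). It was 0.029 over 334 on 6p, the arm of HSPA1A, HSPA1B and HSP90AB1. With arm medians removed, an alternative chosen after seeing the data, HSPA1A (0.40 with vehicle, 0.42 under LY500307) and HSPA1B (0.28 and 0.28) were still higher in knockout cells and passed. HSPH1 then stood at -0.063 with vehicle (adjusted p = 0.214) and 0.10 under LY500307 (adjusted p = 0.0384), and DNAJB1 at -0.14 (adjusted p = 0.0162) and -0.042 (adjusted p = 0.481). HSF1 stood at 0.40 (adjusted p = 2.18e-07) and 0.225 (adjusted p = 0.000774), and HSP90AA1 at -0.31 (adjusted p = 4.01e-09) and -0.16 (adjusted p = 0.000213). HSPB1 on 7q stood at 0.11 with vehicle (adjusted p = 0.0673) and no longer passed under LY500307 (-0.078, adjusted p = 0.194), and HSPA8 on 11q passed with vehicle (0.095, adjusted p = 0.0253), as it did with library totals (0.11, adjusted p = 0.00778). DNA copy number was not analysed here, and its part in these differences was not tested.

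**Figure D4:**
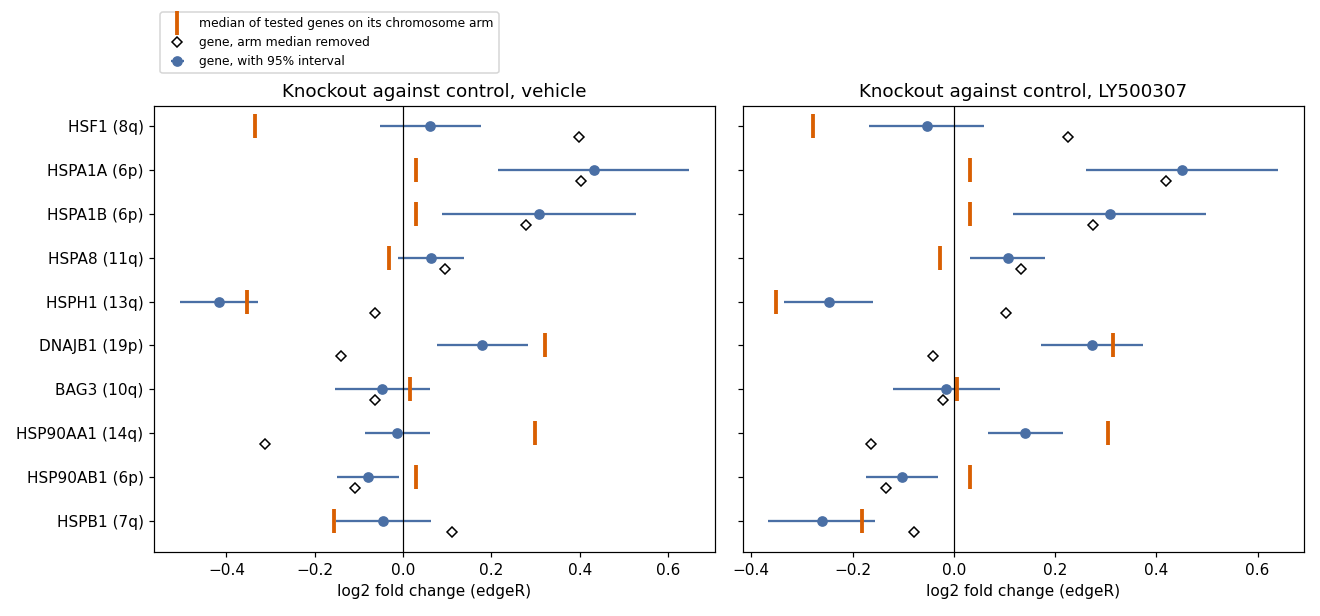
For each gene (y axis, with its chromosome arm), the log2 fold change of knockout against control with its 95% interval (blue), the median of all genes tested on the arm (orange bar) and the value with that median removed (diamond), with vehicle on the left and LY500307 on the right. HSPH1 (-0.42) and the 13q median (-0.35) lie on the same side of 0 with vehicle, as do DNAJB1 (0.18) and 19p (0.32), while HSPA1A and HSPA1B stand above the 6p median of 0.029 with vehicle.

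Other genes of the cytosolic chaperone system were followed through lists given by family. Across 5 lists with 58 genes tested (other HSP70 and HSP110 genes, J-domain cochaperones, HSP70 cofactors, HSP90 cochaperones, and the TRiC chaperonin with prefoldin), LY500307 raised 9 and lowered 12 in control cells and raised 14 and lowered 7 in knockout cells. Of all genes tested 12.3% rose and 14.0% fell in control cells, and 9.16% rose and 11.3% fell in knockout cells, which is the background for each list below. The median log2 fold changes were -0.048 and 0.032, beside 0.0052 and 0.010 over all genes. Other HSP70 and HSP110 genes rose in 3 of 7 in control cells and fell in 0. The 3 were HSPA2 (log2 fold change 0.46), HSPA4L, a relative of HSPH1 (0.34), and HSPA1L (0.75, SE 0.26). HSPA1L had only 31 to 95 counts in a library. In knockout cells HSPA2 (0.37), HSPA4L (0.20) and HSPA4 (0.12) rose and 0 fell. HSPA6, a strictly stress-inducible HSP70 gene, had only 4 to 19 counts in a library and log2 fold changes of -0.15 and -0.065 with LY500307 (adjusted p = 0.893 and 0.944).

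J-domain cochaperones, which bring substrates to HSP70, rose in 3 of 11 and fell in 2 in control cells, and rose in 5 and fell in 1 in knockout cells. DNAJB4, close kin of DNAJB1, rose by 0.59 (SE 0.084, adjusted p = 2.52e-06) and 0.41 (SE 0.081, adjusted p = 0.000311). DNAJB5 rose by 0.67 in control cells (adjusted p = 1.17e-05), and DNAJA1 by 0.32 in knockout cells (adjusted p = 4.95e-06). DNAJC5, the cysteine string protein of secretory vesicles, fell by 0.27 and 0.29. HSP70 cofactors rose in 1 of 9 and fell in 4 in control cells and rose in 2 and fell in 2 in knockout cells. BAG4 had a log2 fold change of -0.099 in control cells (adjusted p = 0.367) and rose by 0.32 in knockout cells, and this difference passed the interaction test (0.42, SE 0.11, adjusted p = 0.0430), the 1 of 86 genes tested on the chaperone and HSF lists that did (1.16%, below the 1.62% of all genes).

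HSP90 cochaperones rose in 2 of 17 and fell in 3 in control cells, near the background of 12.3% and 14.0%, and rose in 4 and fell in 3 in knockout cells (background 9.16% and 11.3%). CHORDC1, an HSP90 cochaperone induced by heat shock, rose in both (0.22 and 0.30), while CDC37, which brings kinases to HSP90, fell in both (-0.16 and -0.22), as did TOMM34 (-0.17 and -0.21) and FKBP5 (-0.21 and -0.25). TRiC and prefoldin subunits rose in 0 of 14 and fell in 3 in control cells and in 1 in knockout cells (PFDN5, -0.19 and -0.24). The other small heat shock protein genes were nearly silent. Their 8 genes, including CRYAB and HSPB8, summed to 0.243 to 0.636 CPM in a library, 2 had no count at all, and none could be tested.

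Outside the cytosol, mitochondrial chaperones rose in 0 of 8 and fell in 1 in control cells (HSPD1, the mitochondrial HSP60, -0.19), and rose in 1 (GRPEL1, 0.17) and fell in 0 in knockout cells. Endoplasmic reticulum chaperones rose in 5 of 15 and fell in 5 in control cells (12.3% and 14.0% of all genes), and rose in 7 and fell in 2 in knockout cells (9.16% and 11.3%). HSPA5 (BiP), the HSP70 of that compartment, rose by 0.17 and 0.35, and MANF by 0.31 and 0.25. HSP90B1, its HSP90, fell by 0.20 in control cells. Among genes of HSF family members and regulators, 1 of 5 fell in control cells (HSBP1, a binding protein of HSF1, -0.16). In knockout cells 5 of 5 missed the threshold of the edgeR test, with log2 fold changes between -0.51 and 0.023.

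Between knockout and control cells the same cytosolic lists went both ways, with 18 of 58 higher and 14 lower with vehicle and 23 higher and 16 lower under LY500307. With vehicle CDC37 (0.58), CDC37L1 (0.86) and CHORDC1 (0.38) were higher and PPP5C (-0.55) lower among HSP90 cochaperones. The chaperonin subunit CCT5 (-1.11) and the prefoldin subunit PFDN1 (-1.0015) were lower. Among other HSP70 genes HSPA14 (0.32), HSPA4L (0.32) and HSPA6 (1.27, SE 0.55, adjusted p = 0.0432, at 4 to 19 counts) were higher. HSPA12A was lower (-1.28, SE 0.45, at 7 to 37 counts). DNAJB6 (-0.66) was lower and DNAJA2 (0.47) and DNAJB2 (0.70) higher among J-domain proteins, and STUB1 (CHIP), the ubiquitin ligase that marks HSP70 clients for degradation, was lower (-0.62) while BAG1 was higher (0.59). Of 5 genes of the HSF family list, HSF4 was higher (0.65) and 4 were lower, including HSF2 (-0.28) and HSBP1 (-0.33). Endoplasmic reticulum chaperones were lower in 11 of 15 and higher in 3, among them PDIA4 (-0.94), PDIA3 (-0.73), HSP90B1 (-0.63) and the collagen chaperone SERPINH1 (-0.58). Mitochondrial chaperones were lower in 4 of 8 and higher in 0, with TRAP1 at -0.66. These stand beside 30.7% of all genes that were higher and 33.3% that were lower with vehicle, and 32.6% and 33.6% under LY500307.

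Likeness of pattern was described by the Pearson correlation of log2 CPM over the 8 libraries of 4 groups, as a description without a test. Among the members, HSPA1A went with HSPA1B (0.95), DNAJB1 (0.93) and HSPA8 (0.92) and against HSP90AB1 (-0.97). HSP90AA1 and HSPB1 ran opposite to each other (-0.92). HSPH1 showed no such likeness to HSPA1A (-0.022), and HSF1 had its highest correlation with HSPB1 (0.39). Among 9750 genes whose mean reached 5 CPM, the closest to HSPA1A were ELOVL4 (0.996), CELSR3 (0.988) and SIRT1 (0.9855), and 42 were above 0.95. The closest to HSPA8 were NOC3L (0.987), PTPN12 (0.986) and MED21 (0.973), those to HSPH1 were RNF139 (0.993), BORA (0.989) and COMMD2 (0.985), and those to HSP90AB1 were CFL1 (0.9896), YWHAH (0.989) and RPS19 (0.983). For the other members the closest gene was ABCA2 (0.928) for HSF1, PCLO (0.985) for HSPA1B, SNRPA1 (0.964) for HSP90AA1, COQ10A (0.974) for HSPB1, PIAS2 (0.988) for DNAJB1 and ATP6V0A1 (0.9675) for BAG3.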

How the data were processed

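RNA of 8 libraries of ES2 cells was sequenced with single-end reads of 50 bases, per the labels' protocols. Each deposited file lists raw counts by gene symbol. The submitters' processing notes name bcl2fastq, TopHat2 2.0.8b, HTSeq and the build hg19 as the authors' tools. The 5 summary entries of the counter were removed; reads outside genes were 10.7% to 12.8% and ambiguous reads 0.811% to 0.861% of uniquely aligned reads. Unused sample columns numbered 0. Libraries of a group differed beyond Poisson noise, with a chi-square of 3.04 to 4.34 for each degree of freedom, and counted as 2 samples.

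Counts were scaled by TMM and fitted with edgeR 4.0.16 (R 4.3.3, limma 3.58.1) by quasi-likelihood after filterByExpr, all 4 groups in 1 model. That left 4 residual degrees of freedom and a prior of 30.1. Tests were two-sided with Benjamini-Hochberg adjustment over 13498 genes and called at 0.05. Another 8 settings were tried, DESeq2 1.42.0 among them, and 1 more was chosen after seeing the data (chromosome arm medians, from 41 arms with at least 20 genes tested). Values are CPM with n = 2 per group, and SE is that of a log2 fold change. The code was tested on simulated counts. Positions are those of GENCODE v44lift37 on GRCh37, and promoter windows from RefSeq (GRCh38.p14). An offset of 0.5 CPM preceded logarithms for correlations.

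The members and lists were chosen with earlier results of these data known. All members are named. From each other list, up to 4 genes per comparison are eligible, by smallest p among genes called, or the 2 of highest mean CPM where fewer than 2 passed; for likeness, the 3 most correlated genes of each member.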

Additional observations from a re-analysis of the deposited data

Results flagged for a closer look

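BAG4, a cofactor of HSP70, was the 1 of 86 genes tested on the chaperone and HSF lists whose response to LY500307 differed between knockout and control cells by the interaction test, with a difference of log2 fold changes of 0.42 (SE 0.11, edgeR adjusted p = 0.0430). Its log2 fold change with LY500307 was -0.099 in control and 0.32 in knockout cells. That is 1.16% of these genes, below the 1.62% of all genes that passed. In the main edgeR fit none of the 10 members met that test, and 3 had an unadjusted p under 0.05, as did 14.4% of all genes.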

How the results depend on the processing

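With 2 libraries a group, leaving out 1 moved the counts of members called. With all libraries they were 5 for knockout against control with vehicle and 8 under LY500307. They were 8 for LY500307 in control cells, 7 in knockout cells and 0 for the interaction. Fits with 1 library left out gave as many calls or fewer. The share of all genes called in those fits is not given here, so the loss cannot be read as particular to the members. A left-out library leaves 1 group with a single sample, which is assumed to vary like the others. The replicate block moved the interaction from 0 to 3 members (HSP90AA1 at 0.16, HSPH1 at 0.17 and HSPB1 at -0.22), while the share of all genes called rose from 1.62% to 4.76%. Deviations of same-numbered libraries correlated by 0.041 to 0.11 over the 6 pairs of groups, low but positive in all. No label says that a number marks a shared culture or day. Whether the numbers pair samples is therefore not settled, and the block was kept as an alternative. Removing chromosome arm medians turned 5 values that passed in at least 1 of the 2 fits. DNAJB1 with vehicle (0.18 to -0.14) passed in both fits with opposite signs. So did HSP90AA1 (0.14 to -0.16) and HSPH1 (-0.25 to 0.10) under LY500307. Under LY500307, HSF1 (-0.053 to 0.225) passed only with arm medians removed, and DNAJB1 (0.27 to -0.042) only in the main fit. HSPB1 with vehicle (-0.044 to 0.11) also turned but passed in neither. Of 760 values of single members under the alternatives, 697 kept their direction and call or passed in neither fit, 46 lost the call, 12 gained one and 5 turned. Depth limits genes with few counts, such as HSPA6 and the other small heat shock protein genes, and among the members HSPA1A and HSPA1B had the lowest counts.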
